A study of Rattus norvegicus with 8 samples.

Results

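The comparison described here is candesartan against vehicle in rat brain after a transient stroke, made with 4 of the 8 arrays of the study. Candesartan was compared with vehicle on 2 arrays each, and every probe set that was not a control and had a signal above 916 on at least 2 of the 8 arrays was tested, which kept 10310 of 15866 probe sets. The animals were male Wistar rats of 7 weeks and 160 to 200 g. The stroke was made by closing the middle cerebral artery on the right side (MCAO) for 90 min and then letting blood return. Before it, the MCAO vehicle rats had received 0.9% NaCl under the skin in 2 injections a day for 5 days, and the MCAO candesartan rats 0.1 mg/kg candesartan on the same schedule. Sham vehicle and sham candesartan rats, also on 2 arrays each, had the same pretreatments without the occlusion. RNA came from a segment of the right hemisphere 2 h after surgery. The RNA of 2 rats was pooled for every array, and a group's 2 pools came from separate rats. The protocol text of the second MCAO candesartan array named no pretreatment. Its group was taken from its remaining labels, which give no dose.

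Candesartan blocks the angiotensin II type 1 (AT1) receptor, through which angiotensin II constricts vessels, raises oxidant production and activates NF-kB in blood vessels and brain. Ischaemia followed by reperfusion misfolds proteins and switches on heat shock factor 1, which binds heat shock elements before the genes of inducible chaperones. Such elements are built of inverted GAA units, and GAANNTTC and TTCNNGAA are pairs of them. Ischaemia also induces immediate early transcription factors and, in endothelium and microglia, adhesion molecules and chemokines that draw in leukocytes.

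The trimmed mean signal of the 8 arrays lay between 2488 and 2491, while the median signal lay between 1258.7 and 1293.95 on 4 arrays, those of sham vehicle and of MCAO candesartan, and between 1322.95 and 1381.45 on the 4 of MCAO vehicle and sham candesartan. The second MCAO candesartan array had the widest spread of log2 signals (SD 1.51, against 1.45 to 1.49) and the lowest mean correlation with the other arrays (0.951, against 0.970 to 0.973). Over probe sets, the pools of MCAO candesartan differed from each other by a median of 0.22 (log2), against 0.13 to 0.15 within the remaining 3 groups. Signals of the defining markers of neurons (Snap25, 55509.4 to 113989.2) and oligodendrocytes (Mbp, 100814.4 to 231193.7) were high, and those of Csf1r of microglia (2413 to 4032.7) and Cldn5 of endothelium (4465.6 to 5529.4) were above 916 on every array. Other defining markers of these types, Itgam, Pecam1 and Pdgfrb, and S100a9 of neutrophils lay below 916 on every array, and Aif1 of microglia ran from 507.9 to 1479.2. With 2 pools against 2, an exact permutation test of a single gene cannot go below p = 0.333, so p-values come from limma, which pools the spread over probe sets and groups. All differences are of log2(signal + 372), which understates the change of dim probe sets.

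After MCAO, 7 probe sets passed limma's test at an adjusted p under 0.05, 0.0679% of those tested. The genes that fell in candesartan rats were Zfand2a, Hspb1, Dnajb1 and Paip1, and those that rose were Cdh22, Cyth3 and H1f10. Of these, Hspb1 passed the signal filter only through the MCAO vehicle arrays, where it was high, which limits what its call can show. The 4 lower probe sets were 0.0388% of those tested and the 3 higher ones 0.0291%. In these tissue pools, fewer cells of a type and less RNA per cell cannot be told apart. Leaving out 1 array leaves its group with 1 pool, judged by the spread of the other groups, so such fits cannot support the 7 calls. Without the second MCAO candesartan array only Zfand2a and Paip1 of the 7 kept their call. Without the first, the group rested on the array least correlated with the others, and far more probe sets were called. All 7 calls were lost when either MCAO vehicle array, or any sham array, was left out. At an unadjusted p under 0.05 there were 1352 probe sets, 560 higher and 792 lower. The direction of the 7 genes was the same under every alternative in which they were tested. Their MCAO pools did not overlap, so leaving out an array could not turn it. The filter, variance model, weights and block left the difference unchanged. Direction therefore says little about the calls. The call was kept in 12 of 20 alternatives for Zfand2a, 10 of 21 for Paip1 and 9 of 20 for Hspb1. It was kept in 8 of 20 for Cyth3, 7 of 20 for H1f10, 6 of 21 for Cdh22 and 4 of 21 for Dnajb1. These counts include the fits with an array left out.

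**Figure D1:**
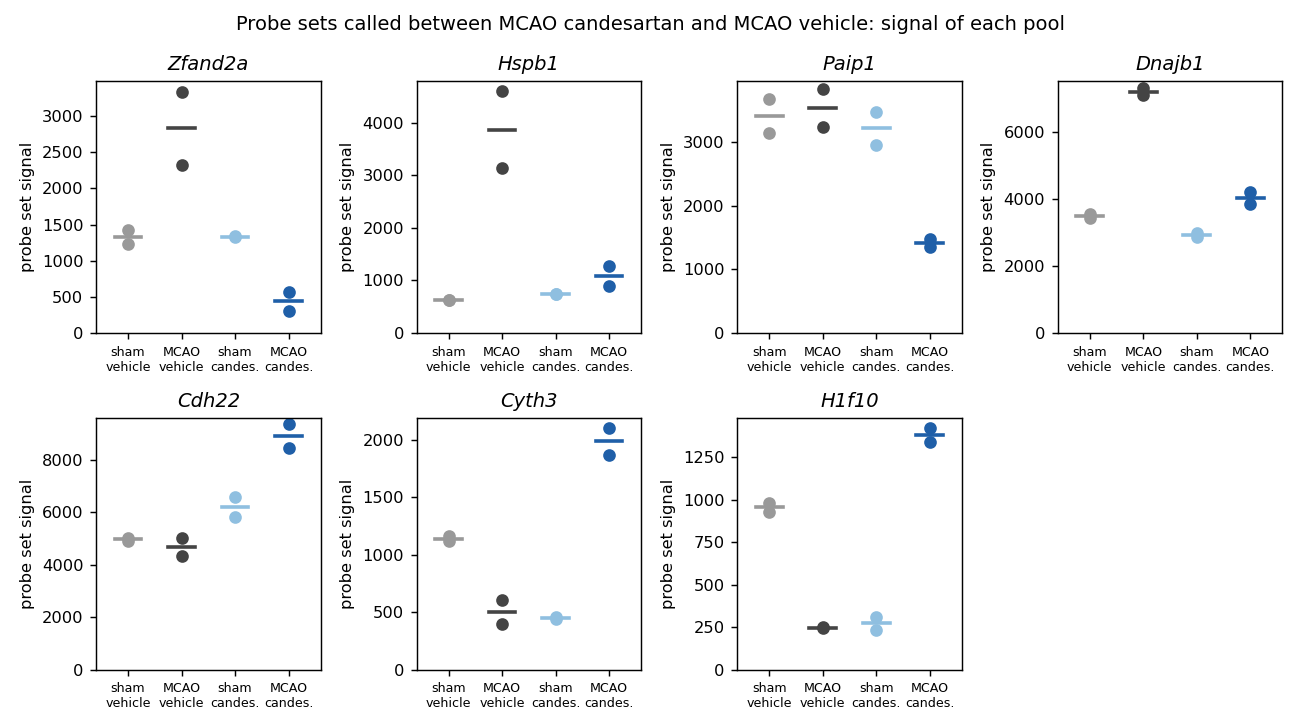
Probe set signal (linear axis from 0) of each pool in the 4 groups, for the 7 probe sets called between MCAO candesartan and MCAO vehicle; points are pools and bars group means. In each panel the 2 MCAO candesartan pools lie wholly below or wholly above the 2 MCAO vehicle pools, from 304.9 and 568.4 against 2323.5 and 3332.4 for Zfand2a to 9346.6 and 8448 against 5026 and 4331.2 for Cdh22.

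Of the 4 genes that fell, 3 are targets of heat shock factor 1, among them Hspb1, which was tested only through the MCAO vehicle arrays. The bases before their start sites are shown because all 3 windows hold pairs of heat shock element units, here in capitals, in the 250 bases upstream (RefSeq, assembly GRCr8, 5′ to 3′ on the gene's strand). Zfand2a lies on the plus strand (chr12:20275200-20275449), Hspb1 on the minus strand (chr12:26432302-26432551) and Dnajb1 on the minus strand (chr19:41431142-41431391).
Zfand2a: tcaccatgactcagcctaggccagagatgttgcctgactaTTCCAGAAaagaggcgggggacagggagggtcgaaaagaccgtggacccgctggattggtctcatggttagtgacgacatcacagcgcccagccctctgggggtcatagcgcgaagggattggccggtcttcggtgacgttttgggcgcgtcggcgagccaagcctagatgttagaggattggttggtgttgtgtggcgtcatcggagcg
Hspb1: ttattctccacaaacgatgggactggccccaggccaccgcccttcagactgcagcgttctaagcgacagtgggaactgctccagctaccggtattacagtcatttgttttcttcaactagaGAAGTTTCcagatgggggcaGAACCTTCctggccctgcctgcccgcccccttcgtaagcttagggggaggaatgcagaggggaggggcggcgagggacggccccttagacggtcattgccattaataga
Dnajb1: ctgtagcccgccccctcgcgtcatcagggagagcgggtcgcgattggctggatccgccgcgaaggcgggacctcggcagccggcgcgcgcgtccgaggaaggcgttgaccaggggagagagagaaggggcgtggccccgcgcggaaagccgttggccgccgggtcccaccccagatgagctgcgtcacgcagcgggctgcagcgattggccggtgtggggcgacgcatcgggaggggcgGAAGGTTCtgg
The pair of Zfand2a, a match to TTCNNGAA, ends 203 bases before the start site. The pairs of Hspb1, matches to GAANNTTC, end 122 and 102 bases before it, and that of Dnajb1 ends 4 bases before it. Such a pair, GAANNTTC or TTCNNGAA (each reads the same on both strands, and overlapping matches were counted once per gene), was present in 3 of the 7 called genes. It was present in 12 of 16 genes of the heat shock list with a promoter in the table (75%), in 9.42% of 6255 tested genes and in 13.18% of all 27457 promoters. The window of Paip1, of Cdh22, of Cyth3, of H1f10 and of Hspa1a did not contain these letters. A longer form of the element, a triple of 3 units, was present in 0 of the 7 called genes. That triple was present in 4 of the 16 genes of the heat shock list (25%) and in 0.38% of the 6255 tested genes. A match describes the sequence and does not show that it is used.

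Zfand2a, a stress-inducible zinc finger protein that binds the proteasome, had signals of 2323.5 and 3332.4 in the MCAO vehicle pools and 568.4 and 304.9 in the MCAO candesartan pools. The pools did not overlap, and both candesartan values also lay below all 4 sham pools (1225.3 to 1428). The mean signal was 6.48-fold lower, and the difference on the log2 scale was -1.99 ± 0.21 (n = 2 pools a group, limma adjusted p = 0.0155). Here and below, ± gives limma's SE, from the spread pooled over probe sets and all 4 groups. With only the MCAO groups fitted, the limma adjusted p of Zfand2a was 0.201. Hspb1, the small heat shock protein HSP27, had signals of 4591.6 and 3132.9 with vehicle and 1273.2 and 887.8 with candesartan. Both MCAO candesartan pools were above the sham pools, whose signals were 633 to 742.8, but well below both MCAO vehicle pools. The log2 difference was -1.53 ± 0.20 (limma adjusted p = 0.0346). Without the signal filter the limma adjusted p of Hspb1 was 0.134. Dnajb1, the HSP40 co-chaperone that delivers clients to HSP70, had signals of 7094.1 and 7296.1 with vehicle and 3850.2 and 4216 with candesartan. The candesartan pools were a little above the highest sham pool (3562.8), and the difference was -0.78 ± 0.11 (limma adjusted p = 0.0499). A second Dnajb1 probe set gave -0.83 and missed the threshold (limma adjusted p = 0.103).

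Hspa1a, the inducible HSP70, had the widest gap between MCAO vehicle and sham among these genes, with signals of 27296.1 and 29810.3 in the MCAO vehicle pools and 1146.8 to 1342.7 in the sham pools. Its MCAO candesartan pools stood at 5793.8 and 14082.2. Both candesartan pools were below both vehicle pools but far apart from each other, and the difference of -1.61 ± 0.29 missed the threshold (limma adjusted p = 0.103). It was -2.23 without the second candesartan pool and -0.9995 without the first. Hmox1, haem oxygenase 1, was at 1946.6 and 2078.1 with vehicle and 796.8 and 1240.7 with candesartan (limma adjusted p = 0.222). Cryab, the lens and glial small heat shock protein, was at 11058.3 and 10630.5 with vehicle and 7823.9 and 7521.7 with candesartan (limma adjusted p = 0.238). Bag3, a co-chaperone of HSP70 in autophagy, was at 2158.1 and 2591 with vehicle and 1366.2 and 1809.1 with candesartan (limma adjusted p = 0.288). For these 3 genes as well, the candesartan pools were the lower ones without overlap.

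Of the 18 tested members of the heat shock list, 3 fell and 0 rose, and 15 did not pass the test. Over all tested probe sets 0.0388% were called lower and 0.0291% higher. The list was chosen with earlier results of these data known, so its calls are a description. In 11 of the 18 both candesartan pools were below both vehicle pools, and in 0 both were above. Over all tested probe sets these shares were 23.8% and 18%. The median difference was -0.32, against -0.03 over all tested probe sets and -0.00 for the same members after sham. It was -0.24 to -0.30 with the other scalings between arrays and -0.08 with a stricter signal filter, which left out the dimmer members. Hspb1 passed the signal filter only through the MCAO vehicle arrays, and without it the counts were 10 and 0 of 17 and the median was -0.30. Members with high signals in the sham pools lay on both sides of the list's median. Cryab, given above, differed by -0.48. Hspd1, the mitochondrial chaperonin, differed by 0.07 and Hspe1, its partner, by 0.01, while Stip1, the adaptor between HSP70 and HSP90, differed by -0.05 (limma adjusted p of 0.864, 0.995 and 0.866). Of 19 constitutive chaperones none passed limma's test, and their median difference was 0.09, which was 0.01 with quantile, 0.00 with loess and 0.17 with median scaling. Hsp90ab1, the constitutive HSP90, was at 42141.6 and 42676.4 with vehicle and 47472.7 and 62889.7 with candesartan (limma adjusted p = 0.313).

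**Figure D2:**
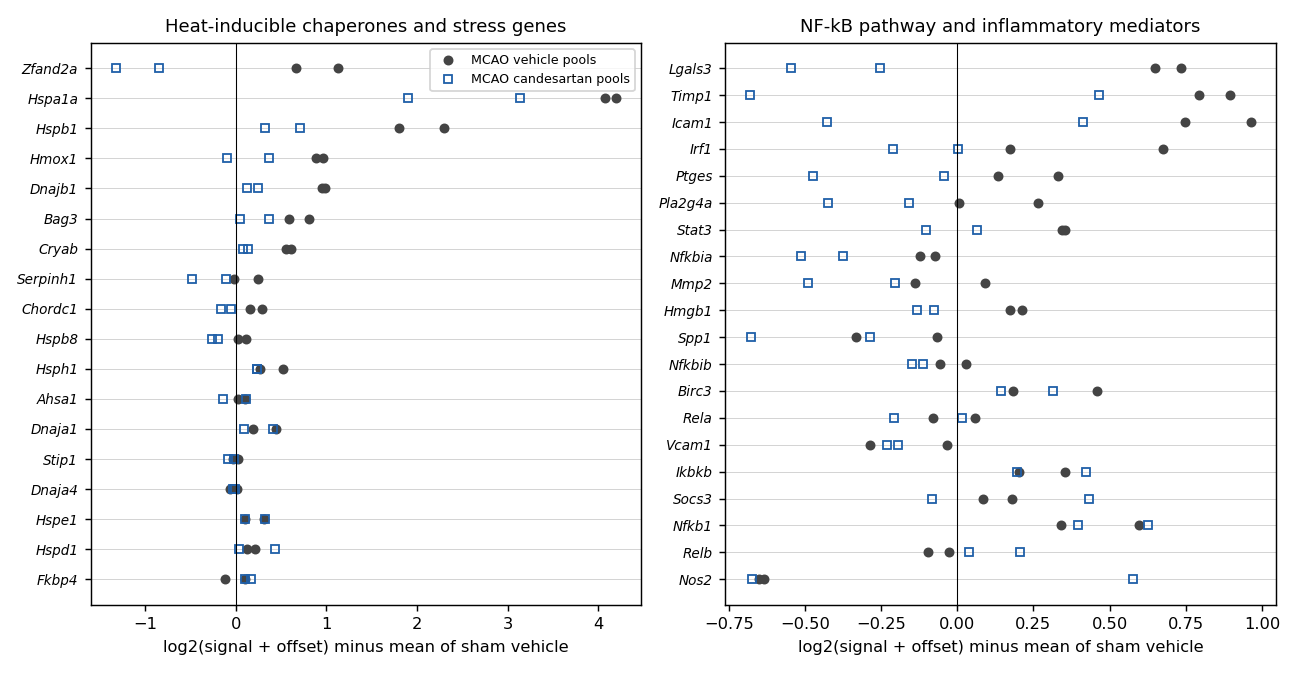
Each MCAO pool as log2(signal + 372) minus the mean of the sham vehicle pools, for the tested members of the heat shock list (left) and of the NF-kB and inflammatory mediator list (right), ordered by the difference between pretreatments; filled circles are MCAO vehicle and open squares MCAO candesartan pools. The squares lie left of the circles without overlap in 11 of 18 heat shock genes and 11 of 20 mediators. Over all tested probe sets this share was 23.8%. Hspb1, Icam1, Birc3 and Ptges passed the signal filter only through the MCAO vehicle arrays.

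Paip1, which joins poly(A)-binding protein to the translation initiation machinery, had signals of 3241.9 and 3835.3 with vehicle and 1350.7 and 1485.2 with candesartan after MCAO, and 2958.9 to 3673.7 in the sham pools. Only the MCAO candesartan pools were low. The difference was -1.12 ± 0.14 (limma adjusted p = 0.0346). A second Paip1 probe set had signals of 2926.9 and 3268.9 with vehicle and 3399.8 and 2986.8 with candesartan, which overlapped, and differed by 0.04 (limma adjusted p = 0.936). The probe sets of this gene therefore disagreed.

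Among the genes that rose, Cdh22, a cadherin of brain cell contacts, had signals of 5026 and 4331.2 with vehicle and 9346.6 and 8448 with candesartan after MCAO. The sham pools lay at 4905.5 and 5025.5 with vehicle and 5825.8 and 6574.1 with candesartan. The MCAO candesartan pools were thus above all other pools. The difference after MCAO was 0.88 ± 0.12 (limma adjusted p = 0.0431). Cyth3, an exchange factor for ARF GTPases, had signals of 399.9 and 610.4 with vehicle and 1872.6 and 2108 with candesartan, a difference of 1.44 ± 0.19 (limma adjusted p = 0.0346). H1f10, a linker histone, had signals of 248.5 and 244.5 with vehicle and 1422.2 and 1336.7 with candesartan, a difference of 1.501 ± 0.209 (limma adjusted p = 0.0431).

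Cyth3 and H1f10 shared a pattern across the 4 groups. After sham, Cyth3 was at 1161 and 1117.8 with vehicle and at 457.4 and 442.9 with candesartan, and H1f10 was at 981 and 927.8 with vehicle and 234.5 and 309.9 with candesartan. In both genes the candesartan pools were thus the lower ones after sham and the higher ones after MCAO, and the sham vehicle and MCAO candesartan pools lay above the other 4. Such an arrangement was found in 1.95% of all tested probe sets, and the reverse one in 2.75%. It was not confined to these genes. Among the 15 named probe sets with the smallest p on the higher side after MCAO it was found in 6, Cyth3 and H1f10 included. Among the 15 on the lower side the reverse one was found in 1. The interaction, the difference after MCAO minus the difference after sham, was 2.32 for Cyth3 and 2.54 for H1f10 (limma adjusted p = 0.0215 for each). These were the 2 probe sets called for the interaction, 0.0194% of those tested, and 914 had an unadjusted p under 0.05. The same 4 arrays had the lower median signals given above, and the part of that split in the pattern was not tested. For Hspb1 the interaction was -1.68 and for Zfand2a -1.99, and neither passed the threshold (limma adjusted p of 0.16 and 0.0917).

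After sham, 0 of 10310 probe sets (0%) were called between candesartan and vehicle by limma, and 404 had an unadjusted p under 0.05. Of the called genes that fell after MCAO, Zfand2a differed by 0.01 there, Hspb1 by 0.14 and Paip1 by -0.08. The 5th to 95th percentile of all differences was -0.26 to 0.31 after sham and -0.47 to 0.35 after MCAO. Dnajb1 lay near the lower end after sham as well, at 3562.8 and 3419.8 with vehicle and 2969.9 and 2872.9 with candesartan. Its sham pools did not overlap, and the difference was -0.23 in this probe set and -0.27 in the second (limma adjusted p = 1 for each). Its interaction of -0.55 did not pass the threshold (limma adjusted p = 0.466). Cdh22, which rose after MCAO, was also higher with candesartan after sham, at 5825.8 and 6574.1 against 4905.5 and 5025.5 with vehicle. Those pools did not overlap, and the difference of 0.30 lay near the upper end. The interaction of Cdh22, 0.58, did not pass the threshold (limma adjusted p = 0.466). After MCAO 10 probe sets differed by more than 1 (log2) upwards and 15 downwards. After sham these counts were 2 and 3.

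The 15 named probe sets with the smallest p on the lower side, of 14 genes, include those called and were ordered by the test itself, so their separation is a description. Gadd45b, a stress-induced regulator of DNA demethylation and MAP kinases, was at 3457.8 and 3352.4 with vehicle and 1430.2 and 1646.1 with candesartan, close to its sham pools of 972.3 to 1362.2 (limma adjusted p = 0.0871). Ppp1r15a, the GADD34 phosphatase subunit that reverses eIF2α phosphorylation, was at 3455.8 and 3748.8 with vehicle and 1827.1 and 2237.5 with candesartan (limma adjusted p = 0.151). Epas1, the hypoxia-inducible factor HIF-2α, was at 8782.7 and 8490.4 with vehicle and 4750.5 and 4086 with candesartan (limma adjusted p = 0.0559), below its sham pools of 6725.7 to 8696.7. A dimmer Epas1 probe set differed by -0.35 (limma adjusted p = 0.584). In each of these genes the candesartan pools were the low ones, with no overlap except in the dimmer Epas1 probe set.

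Other probe sets on this lower side were Cnot1, the scaffold of the CCR4-NOT deadenylase, at 3515.3 and 3866.8 with vehicle and 2166.6 and 1474.2 with candesartan (limma adjusted p = 0.0956). Terf2, a telomere-binding protein, was at 1648.7 and 2335.6 with vehicle and 719.4 and 551.9 with candesartan (limma adjusted p = 0.103). Tcf7l2, a Wnt pathway transcription factor that also marks thalamic neurons, was at 6194.3 and 6952.2 with vehicle and 4078.2 and 3747.6 with candesartan (limma adjusted p = 0.121). The candesartan pools of these 3 genes lay below all sham pools as well. Map4k3, a kinase of amino acid signalling, differed by -0.99 in one probe set and 0.15 in another (limma adjusted p of 0.153 and 0.657).

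On the higher side, Ccnd2, cyclin D2, was at 1200.3 and 1294.8 with vehicle and 2698.4 and 3121.8 with candesartan (limma adjusted p = 0.0559). It passed the threshold with quantile, median and cyclic loess scaling (adjusted p of 0.0409, 0.0431 and 0.0476). The candesartan pools were above the sham pools of 1845.1 to 2618 too. Sncb, β-synuclein of presynaptic terminals, was at 3868.7 and 3755.3 with vehicle and 6890.6 and 6394 with candesartan (limma adjusted p = 0.0871), while a brighter Sncb probe set differed by 0.05. In the dimmer one the sham pools were at 5585.3 and 5832.3 with vehicle and 4392.6 and 3632.8 with candesartan, so it had the arrangement of Cyth3 and H1f10. Khsrp, an RNA-binding protein that speeds the decay of AU-rich messages, was at 754.3 and 1211.3 with vehicle and 2241 and 2274.5 with candesartan (limma adjusted p = 0.103). For Khsrp the sham vehicle pools, at 2091.1 and 2294.5, were as high as the MCAO candesartan pools.

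Also on the higher side, Camk2a, the α subunit of CaM kinase II, was at 4401.6 and 2412 with vehicle and 15879.2 and 10931.9 with candesartan, and the sham pools ran from 2217 to 6654.7. This was the largest difference upwards among all tested probe sets, 1.89 ± 0.41, but the pools of each group also spread widely and it missed the threshold (limma adjusted p = 0.194). It was called with a replicate block (adjusted p = 0.0195), although the replicate numbers did not pair the samples. Another 2 Camk2a probe sets differed by 0.37 and 0.03. Camk2n1, an inhibitor of the same kinase, was at 11461.7 and 9028.8 with vehicle and 16716.5 and 23670.4 with candesartan (limma adjusted p = 0.103), and its second probe set differed by -0.14. Psd, an exchange factor for ARF6 at the postsynapse, was at 1364.2 and 541.4 with vehicle and 3643.7 and 2723.4 with candesartan (limma adjusted p = 0.155). Its MCAO candesartan pools were also above all sham pools. Ddn, dendrin of dendrites and spines, was at 10959.8 and 9105.3 with vehicle and 16024.2 and 15945.8 with candesartan (limma adjusted p = 0.184). Negr1, a neuronal adhesion molecule, was at 3877.7 and 3798.3 with vehicle and 5660.3 and 6113.1 with candesartan (limma adjusted p = 0.185). Its sham pools were at 5336.9 and 4869 with vehicle and 4262.6 and 3768.2 with candesartan, the arrangement of Cyth3 and H1f10. In all of these brighter probe sets the MCAO candesartan pools were above the MCAO vehicle pools without overlap.

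**Figure D3:**
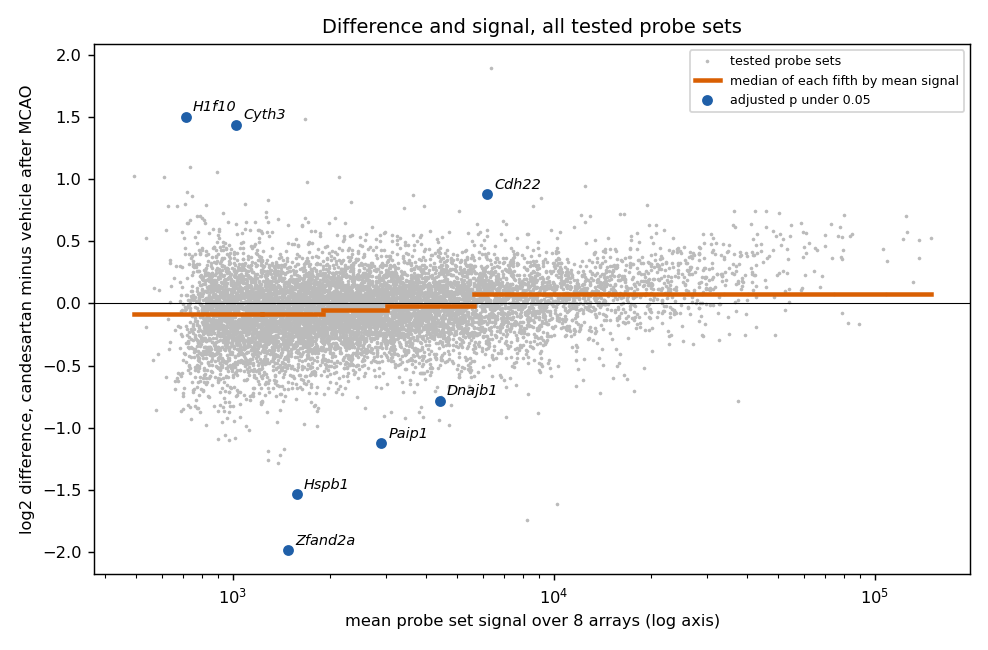
Log2 difference between MCAO candesartan and MCAO vehicle of the 10310 tested probe sets against their mean signal over the 8 arrays (log axis), with the 7 called probe sets named and the median of 5 equal bins by mean signal as a line. The line steps from -0.08 in the dimmest bin to 0.08 in the brightest.

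The difference was above 0 in 44.2% of the tested probe sets, and it moved with signal. Its median was -0.08 in the dimmest of 5 equal bins of probe sets and 0.08 in the brightest, whose mean signals were 5623 to 149052. After quantile or cyclic loess scaling these medians were -0.00 to 0.01. Lists of very bright or very dim genes are therefore given with those scalings too.

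The study's title names a reduced inflammatory response, so inflammatory genes were examined by role. None of the 20 tested members of the NF-kB and mediator list, and none of the 14 tested cytokines and chemokines, passed limma's test. In the mediator list both candesartan pools were below both vehicle pools in 11 of 20 genes and above them in 1, against 23.8% and 18% of all tested probe sets, with a median difference of -0.29. The members Icam1, Birc3 and Ptges passed the signal filter only through the MCAO vehicle arrays, and among the other 17 these counts were 9 and 1 and the median -0.28. The median was -0.22 with quantile and -0.21 with loess or median scaling. For the cytokines and chemokines the counts were 5 and 0 of 14 and the median was -0.12. This median became 0.06 with the stricter filter and 0.08 without the first MCAO candesartan array. Cxcl1 would not have passed the signal filter without the MCAO vehicle arrays, and 1 member would not have passed it without the MCAO candesartan arrays. Among the 11 members that needed neither MCAO group to pass it, the counts were 4 and 0 and the median -0.06.

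Among chemokines, Cxcl1, which attracts neutrophils, was at 1736.7 and 1654.2 with vehicle and 1286.7 and 540.4 with candesartan, against 38.5 to 181.5 in the sham pools. The candesartan pools were lower without overlap but far from each other, and the difference was -0.75 ± 0.31 (limma adjusted p = 0.352). Ccl2, the monocyte chemokine, did not pass the signal filter, and was at 1113.8 and 794.8 with vehicle and 690.9 and 361.9 with candesartan. Without the filter it differed by -0.58 (limma adjusted p = 0.416). Among cytokines below the filter, Il1b was at 879.8 and 663.9 with vehicle and 791.8 and 466.9 with candesartan, and Il6 was at 244 and 396.4 with vehicle and 178.5 and 58.5 with candesartan. The pools of Il1b overlapped, and the Il6 signals were near or below the offset.

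Among adhesion and matrix genes, Icam1, the endothelial ligand of leukocyte integrins, was at 918.8 and 1126.3 with vehicle and 199.5 and 651.8 with candesartan (limma adjusted p = 0.3). It exceeded 916 only in the MCAO vehicle pools, without which it would not have been tested. Timp1, an inhibitor of matrix metalloproteinases, was at 2386.5 and 2198.6 with vehicle and 1671.7 and 553.4 with candesartan (limma adjusted p = 0.275). Lgals3, galectin 3 of activated macrophages and microglia, was at 1271.7 and 1372.2 with vehicle and 508.4 and 346.9 with candesartan (limma adjusted p = 0.169). All 3 were lower without overlap, but the sham candesartan pools of Lgals3, at 1222.3 and 1082.8, were much nearer to MCAO vehicle than to MCAO candesartan. Of the regulators, Ptgs2, cyclooxygenase 2, was at 2090.6 and 2020.6 with vehicle and 1526.2 and 1507.6 with candesartan (limma adjusted p = 0.433). Nfkbia, the NF-kB inhibitor that NF-kB itself induces, was at 2990.9 and 3108.4 with vehicle and 2449 and 2188.5 with candesartan (limma adjusted p = 0.447).

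Of 26 tested immediate early transcription factors none was called by limma, 13 had both candesartan pools below both vehicle pools and 2 had them above, against 23.8% and 18% of all tested probe sets. The median difference was -0.22, which was -0.14 without the first MCAO candesartan array, -0.15 with median scaling and -0.13 with the stricter filter. Fosl1 and Atf3 passed the filter only through the MCAO vehicle arrays. Among the 23 members that needed neither MCAO group to pass it, 11 were lower and 2 higher without overlap, and the median was -0.22. Fos was at 10898.8 and 7984.5 with vehicle and 6332.2 and 7694.7 with candesartan, against 754.8 to 964.8 in the sham pools (limma adjusted p = 0.343). It was thus far above sham with both pretreatments. Atf3, a stress-induced repressor, was at 1821.1 and 2117.6 with vehicle and 853.3 and 1022.3 with candesartan, against 60 to 177.5 in the sham pools (limma adjusted p = 0.251). Jun differed by -0.82, -0.30 and -0.32 in its 3 probe sets, the first of them at 8291.8 and 8471.9 with vehicle and 4034.2 and 5221.8 with candesartan (limma adjusted p = 0.153). Ier3, a stress-induced survival factor, was at 2537.5 and 1827.7 with vehicle and 1276.7 and 1138.7 with candesartan (limma adjusted p = 0.251). For Atf3, Ier3 and the first Jun probe set, the MCAO candesartan pools lay between the sham and the MCAO vehicle pools. Nr4a1, an orphan nuclear receptor, was on the other side, with 7977.4 and 8323.9 with vehicle and 9053.6 and 12505.1 with candesartan (limma adjusted p = 0.432). Arc, which removes AMPA receptors from active synapses, was at 6179.3 and 5995.4 with vehicle and 5802.3 and 7230.3 with candesartan, where the pools overlapped. Of 25 activity-induced effector genes, 8 were lower and 6 higher without overlap (32% and 24%), near the shares over all tested probe sets.

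**Figure D4:**
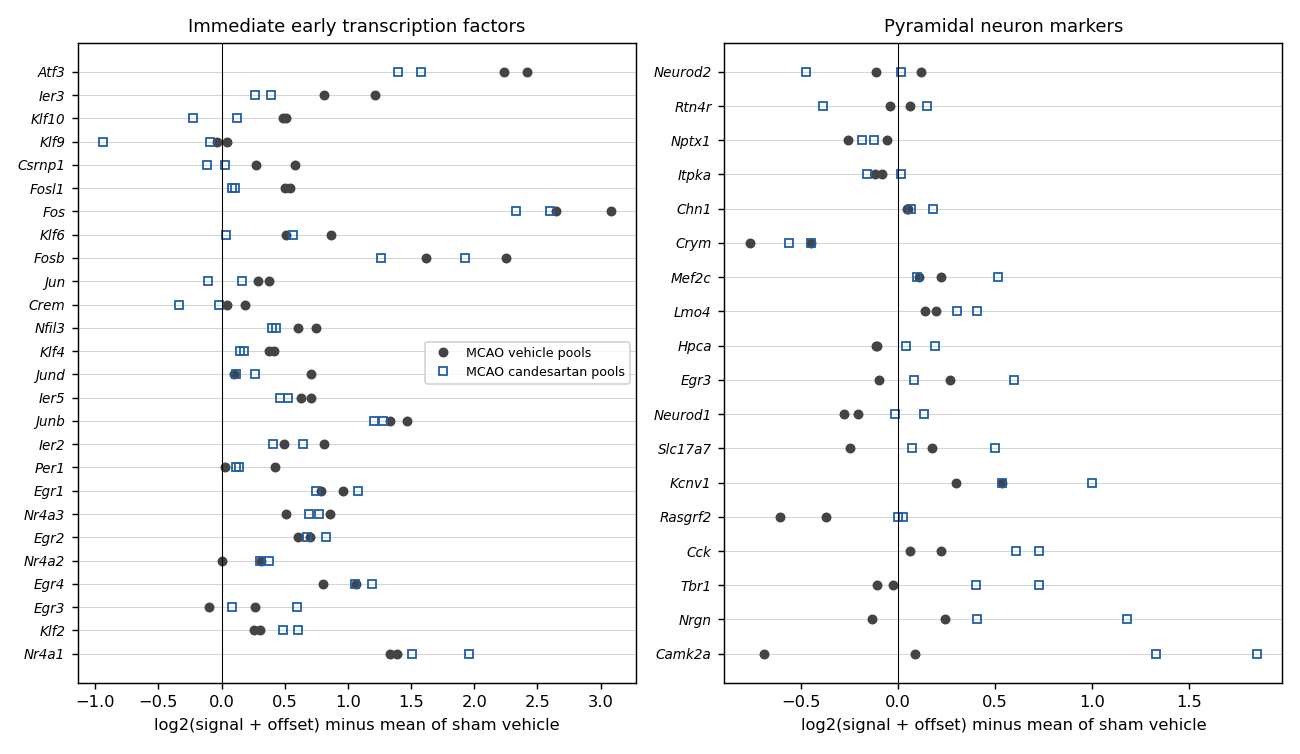
Each MCAO pool as log2(signal + 372) minus the mean of the sham vehicle pools, for immediate early transcription factors (left) and pyramidal neuron markers (right), ordered by the difference between pretreatments; filled circles are MCAO vehicle and open squares MCAO candesartan pools. On the left 13 of 26 genes have both squares below both circles, and on the right 9 of 18 have both squares above both circles. Over all tested probe sets these shares were 23.8% and 18%. Fosl1 and Atf3, on the left, passed the signal filter only through the MCAO vehicle arrays.

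The drug's target system gave no calls in limma's test. The AT1 receptor genes were dim: 2 Agtr1a probe sets differed by 0.60 and -0.64 without the filter and Agtr1b by -0.39, with adjusted p of 0.374, 0.372 and 0.454, and no signal of these probe sets exceeded 462.9 on any array. Agtr2, the AT2 receptor, differed by 0.13 and 0.11. Of 9 tested genes of the system, Agt, the angiotensin precursor made by astrocytes, was at 5814.8 and 6158.3 with vehicle and 4357.6 and 6622.4 with candesartan, which overlapped. Ace, the converting enzyme, differed by -0.11, and Mas1, the receptor of angiotensin-(1-7), by -0.42 (limma adjusted p of 0.829 and 0.368). A second Ace probe set, below the filter, was at 442.4 and 479.4 with vehicle and 251.9 and 246.9 with candesartan. These signals were near the offset, and without the filter the difference was -0.42 (limma adjusted p = 0.42). Agtrap, which binds the AT1 receptor and promotes its internalisation, differed by -0.21 (limma adjusted p = 0.602). Of the 9, 2 were lower without overlap (22.2%), near the 23.8% over all tested probe sets, and 0 were higher, against 18%. Their median was -0.11, which was -0.03 with quantile or median scaling, -0.02 with loess scaling, -0.01 with the stricter filter and -0.17 without the first MCAO vehicle array. Bdnf, a neurotrophin, and its receptor Ntrk2 differed by -0.12 and 0.23 (limma adjusted p of 0.838 and 0.446). A second Bdnf probe set, below the filter, differed by 0.17 without it (limma adjusted p = 0.736).

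Of 16 tested glucocorticoid-responsive genes none was called by limma, 9 were lower and 2 higher without overlap, and the median difference was -0.34. The shares over all tested probe sets were 23.8% and 18%. This median was the lowest of the 33 lists with the deposited scaling, but with quantile scaling it was -0.28, above the -0.30 of the heat shock list. Sgk1, the serum and glucocorticoid-induced kinase, was at 15104.5 and 16126.4 with vehicle and 12854.8 and 9275.8 with candesartan, and its sham pools were at 15726.7 to 19892.9 (limma adjusted p = 0.264). Tsc22d3, the leucine zipper protein GILZ, was at 8357.8 and 9386.7 with vehicle and 7157.5 and 5232.8 with candesartan (limma adjusted p = 0.253). Angptl4, a lipase inhibitor, was at 1611.2 and 1904.1 with vehicle and 1083.8 and 970.3 with candesartan (limma adjusted p = 0.238). These 3 genes were lower in the candesartan pools without overlap. Dusp1, the MAP kinase phosphatase, was among those on the other side, with 8682.8 and 8312.9 with vehicle and 10116.4 and 14577.6 with candesartan (limma adjusted p = 0.275). The list therefore held members on both sides. Its median was -0.20 without the second MCAO candesartan array, against -0.25 for the heat shock list.

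Neuronal markers leaned the other way, with no member called by limma. Of 18 pyramidal neuron markers, 9 had both candesartan pools above both vehicle pools and 0 below, against 18% and 23.8% of all tested probe sets. Their median was 0.24, or 0.16 and 0.17 with quantile and loess scaling and 0.16 without the second MCAO candesartan array. Their summed signal was 239148 and 265560 in the MCAO candesartan pools and 177933 to 201728 in the other 6. For the general neuron list the sums were 322190 and 358808 against 279781 to 314855, and its median of 0.10 was 0.01 with quantile and -0.00 with loess scaling, and 0.07 to 0.21 when 1 MCAO vehicle array was left out. Neurod6, a defining pyramidal marker, is not named on the array, and Slc17a7, the vesicular glutamate transporter, overlapped between the pretreatments (14623.5 and 19838.8 with candesartan, 15755.9 and 11646.3 with vehicle). Tbr1, a cortical transcription factor, was at 1277.2 and 1180.8 with vehicle and 1841.1 and 2405.9 with candesartan (limma adjusted p = 0.253). Cck, the neuropeptide cholecystokinin, was at 30056.5 and 26848.9 with vehicle and 39377.8 and 42839.9 with candesartan (limma adjusted p = 0.251). Sst, somatostatin of interneurons, was at 12639 and 9940.1 with vehicle and 17122 and 19950.3 with candesartan (limma adjusted p = 0.195). In these 3 genes the MCAO candesartan pools were above all 6 other pools. Of 13 tested interneuron markers, 7 were higher and 2 lower without overlap. Dlx5 of that list was lower, at 1437.7 and 1448.7 with vehicle and 991.3 and 902.8 with candesartan (limma adjusted p = 0.304). Gad1, a defining interneuron marker, was at 21992.6 and 18942.9 with vehicle and 19603.9 and 17980.8 with candesartan, which overlapped. How far the makeup of the dissected segments took part in any of these differences was not tested.

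Housekeeping lists of bright genes showed the same lean. Over all tested probe sets 18% were higher and 23.8% lower without overlap. Of 39 tested ribosomal protein genes, 31 were higher and 0 lower without overlap, and 0 were called by limma. Their median difference was 0.23, which was 0.07 with quantile and with loess scaling and 0.15 without the second MCAO candesartan array. Rps23 was at 44791.6 and 36711.5 with vehicle and 51640.8 and 87597.9 with candesartan, the second candesartan pool being the highest (limma adjusted p = 0.251). Of 69 genes of the respiratory chain, 31 were higher and 4 lower, with a median of 0.15, or 0.03 and 0.02 with quantile and loess scaling and 0.10 without the second MCAO vehicle array. Uqcr10, a subunit of complex III, was an exception at 15463.4 and 16591.8 with vehicle and 9932.4 and 10986.4 with candesartan (limma adjusted p = 0.194), and Uqcr11 of the same complex differed by 0.41 (limma adjusted p = 0.238).

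Among other cell types, 9 of 16 oligodendrocyte markers were lower and 1 higher without overlap, against 23.8% and 18% of all tested probe sets. Their median of -0.21 was -0.09 without the second MCAO vehicle array, -0.13 with median scaling and -0.30 with quantile or loess scaling. The higher one was Mbp, myelin basic protein, at 100814.4 and 105614.4 with vehicle and 122216.7 and 231193.7 with candesartan (limma adjusted p = 0.275), and it carried the summed signal of the list, 365446 and 459458 with candesartan against 349943 and 390512 with vehicle. Mag, myelin-associated glycoprotein, was at 18849.7 and 21721.9 with vehicle and 18365.7 and 9813.2 with candesartan (limma adjusted p = 0.352). For 12 choroid plexus and ependymal markers the median was -0.31, or -0.19 without the first MCAO candesartan array and -0.15 with the stricter filter, although Ttr, the defining transthyretin, was at 54299.7 and 54866.1 with vehicle and 46303.9 and 59442 with candesartan. The summed signal of 17 blood cell markers was lower in the MCAO candesartan pools (86059 and 88980) than in the other 6 (95400 to 117121). Hbb alone made up most of these sums, and only 4 of the 17 markers passed the signal filter. Hbb, β-globin, was at 84226.7 and 90920.2 with vehicle and 75962.8 and 80107.2 with candesartan, and Alas2, the red cell haem synthesis enzyme, at 5248.5 and 5026.5 with vehicle and 3511.3 and 1756.6 with candesartan (limma adjusted p of 0.608 and 0.244). Slc4a1 of the same list was higher without overlap, at 1124.3 and 1235.3 with vehicle and 1330.2 and 1421.7 with candesartan (limma adjusted p = 0.727). Microglial sums were 49159 and 50518 with candesartan and 48440 and 50295 with vehicle, and astrocyte sums, 292234 and 402075 with candesartan, spanned those of vehicle (293812 and 305562).

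**Figure D5:**
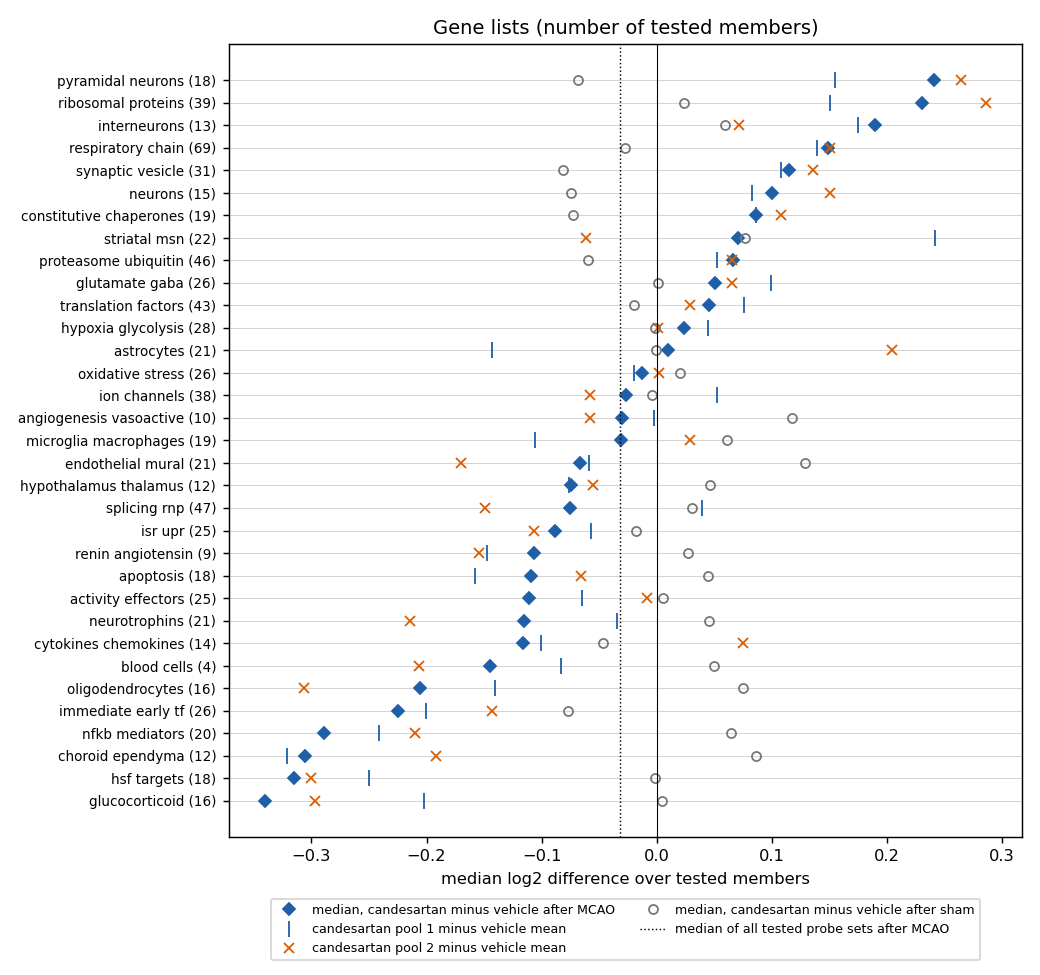
Median log2 difference between candesartan and vehicle over the tested members of each of 33 gene lists (number of members in brackets), after MCAO (diamonds; bars and crosses give each candesartan pool against the vehicle mean) and after sham (circles); the dotted line is the median of all tested probe sets after MCAO, -0.03. The medians after MCAO run from -0.34 for glucocorticoid-responsive genes to 0.24 for pyramidal neuron markers.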

How the data were processed

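Total RNA from 8 pools of 2 rats was measured on Affymetrix RAE 230A arrays, per the labels. The authors deposited 1 table of signal intensities, linear and 1 per probe set. GCOS, the Affymetrix software, is named in the submitters' processing notes, with version and settings not given in the sources used here. Scaling between arrays was kept as deposited. From 15923 probe sets 57 controls were removed. To each signal 372, the 20th percentile of signals, was added before log2. Probe sets above 916, the 40th percentile of all values, on at least 2 of 8 arrays were kept (10310). Gene symbols came from GEO's platform annotation: 12783 probe sets had 1 symbol, 312 several and 2771 none, and only the first kind were named. Of these, 12748 matched the RefSeq table of GRCr8, which changed 0 symbols and gave the promoter sequences.

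All 4 groups were fitted in 1 limma model (limma 3.58.1, R 4.3.3) with lmFit and a trended eBayes, leaving 4 residual degrees of freedom. Benjamini-Hochberg adjustment ran over all 10310 probe sets, with calls made where adjusted p was under 0.05. The model was tested on simulated data. For arrays, their number limits the precision. Gene lists were described with 1 probe set a gene, the brightest; they were not tested. Genes were named when called, when among the 15 smallest p each way, when among the 4 smallest p of a list, or from a fixed set of stress, inflammatory and angiotensin genes; other list members were named after their values were seen. The comparison, the lists and the rule were chosen with earlier results of these data known. Alternatives covered scaling, offset, filter, variance model, groups fitted, array weights, the replicate number as a block and omission of each array. Leaving out list members that passed the filter only through 1 MCAO group was added after seeing the data. Replicate numbers did not pair the MCAO samples (same-number correlation of deviations -0.03).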

Additional observations from a re-analysis of the deposited data

Results flagged for a closer look

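For Cyth3 the candesartan difference after MCAO was larger than that after sham by 2.316 (log2) in limma's interaction test (adjusted p = 0.0215), with opposite directions in the 2 operations: 1.44 after MCAO and -0.88 after sham. For H1f10 the interaction was 2.544 (limma adjusted p = 0.0215), with 1.501 after MCAO and -1.04 after sham. Both genes were called for the interaction with the deposited scaling and were the only called probe sets. No group had enough arrays for a search for outlying samples.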

How the results depend on the processing

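After MCAO the 7 calls (3 higher, 4 lower) became 9, 7 (4 higher, 3 lower) and 8 with quantile, median and loess scaling, 2 with an offset of 50, 4 without the variance trend, 4 with a robust trend, 1 with array weights and 7 with either larger or smaller percentile offset. They became 0 without the filter, with the stricter filter and with only the groups compared, and 0 to 985 when 1 array was left out. With a replicate block, although the numbers do not pair the samples, 4 were called, 3 of them shared with the 7, and the 2 interaction calls became 0. The interaction calls also became 0 with an offset of 50, without the filter and with the stricter filter, were 3 with median scaling, which moved the median of all interactions from -0.05 to 0.08, and 0 to 295 when 1 array was left out. Over the settings with 0 calls, limma gave 584 to 1740 probe sets at an unadjusted p under 0.05 after MCAO. After sham the count was 0 under every alternative. Of 2054 alternative values of 100 probe sets followed singly, 1892 kept direction and side of the threshold, 87 lost the call, 57 gained it (49 of them without MCAO candesartan 1) and 18 turned direction; none of the last was a called probe set.

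Direction turned in uncalled probe sets when 1 array was left out, with ranges of -0.7237 to 0.0267 (dimmer Epas1), -0.9315 to 0.2915 (1 Jun probe set), -0.1889 to 0.2546 (1 Camk2a), -0.065 to 0.2352 (Arc), -0.4264 to 0.138 (Agt), -0.2382 to 0.0246 (Ace), -0.3721 to 0.1412 (Bdnf), -0.0514 to 0.3398 (1 Ntrk2), -0.0452 to 0.1221 (second Paip1), -0.4407 to 0.0314 (Il1b), and -0.0488 to 0.3122 and -0.1171 to 0.3454 (Agtr2). The brighter Sncb probe set ran from -0.0179 to 0.1215, and was -0.098 with quantile and -0.0967 with loess scaling. The causes were not tested. Signals near the offset, such as those of Agtr1a, Agtr1b and Il6, limit what can be read from their differences. Leaving out an array leaves its group with 1 pool, which is then assumed to vary like the others.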
